A study of Mus musculus with 2 samples.

Results

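Nuclei with Opalin RNA and no Il33 RNA were a small set among the oligodendrocyte nuclei of the mouse hippocampus, and 1376 of them were found among 25957 nuclei kept from 29314 deposited barcodes. A nucleus was kept with at least 500 genes, at least 800 unique molecular identifiers (UMIs, each counting 1 captured RNA molecule) and under 5% mitochondrial UMIs. It passed the oligodendrocyte gate with a UMI of at least 4 of the 9 genes Mog, Mag, St18, Prr5l, Aspa, Ermn, Cldn11, Anln and Sec14l5 and at most 4 UMIs of the neuronal gene Syt1. Of the 10597 nuclei in this gate, those with at least 1 Opalin UMI and no Il33 UMI formed the set. All values of these 12 genes in the set are therefore descriptions of the choice.

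The study injected Bcas2F/F mice, in which the Bcas2 gene is flanked by recombination sites, with adeno-associated virus. One library came from hippocampal tissue after AAV2/9-Syn-cre and is labelled Bcas2 knockdown. The other came after AAV-vehicle and is labelled WT, although its title also names Bcas2F/F mice. The synapsin promoter drives Cre in neurons, so oligodendrocytes are not the cells it is built to recombine, and ages, sexes and the number of mice pooled are not given in the labels. Each group had 1 library, so no difference between them could be tested against a spread between animals, and every interval below is a 95% interval that covers counting error only.

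Oligodendrocytes wrap axons in myelin, a stack of membrane held together by proteins such as myelin basic protein. They arise from precursors that pass through a short newly formed stage before they mature. Opalin encodes a transmembrane glycoprotein of central myelin and marks myelinating oligodendrocytes. Il33 encodes a nuclear cytokine, released from damaged cells, that mature oligodendrocytes and astrocytes of the mouse brain contain.

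Bcas2, the targeted gene and a subunit of the Prp19 splicing complex, was at 64.7 CPM (37 UMIs) in the set in the Syn-cre library and at 37.7 CPM (125 UMIs) in the vehicle library. CPM here is the UMIs of a gene per 1000000 UMIs summed over the nuclei of a subset in 1 library. The log2 ratio of Syn-cre over vehicle was 0.78 (0.21 to 1.32), higher in the library labelled knockdown. This was not particular to the set. The ratio was 0.84 (0.55 to 1.12) in gate nuclei with neither Opalin nor Il33 UMIs and 0.39 (-0.04 to 0.81) in Il33-positive gate nuclei. In nuclei of a neuron gate, the cells Cre was aimed at, the ratio was 0.28 (0.04 to 0.53). The deleted part of Bcas2 is not given in the labels, and 3′ tags that lie outside it do not check the deletion.

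The Syn-cre library held 233 nuclei of the set among 13429 kept nuclei, 1.74% (1.52 to 1.97), and the vehicle library 1143 among 12528, 9.12% (8.62 to 9.64). Most of this gap was in the gate itself, which took 15.7% of kept nuclei in the Syn-cre and 67.8% in the vehicle library. As a share of the gate the set was 11.1% (9.76 to 12.5) of 2106 nuclei and 13.5% (12.7 to 14.2) of 8491. The limit on Syt1 removed 56 and 35 nuclei that met all other conditions. Just outside the set, 95 and 506 nuclei had exactly 1 Il33 UMI, 6 and 35 had 3 gate genes and 3 and 0 had 5 Syt1 UMIs, with every other condition met. Just inside it, 176 and 830 nuclei had 1 Opalin UMI, 21 and 23 had 4 gate genes and 11 and 2 had 4 Syt1 UMIs. Thinned to 1000 UMIs per nucleus, the set held 7.47% of the gate in the Syn-cre and 9.47% in the vehicle library.

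The rest of the gate divided differently between the libraries. Nuclei with UMIs of both Opalin and Il33 were 8.88% (7.70 to 10.2) of the gate in the Syn-cre and 16.7% (15.9 to 17.5) in the vehicle library. Il33-positive nuclei as a whole were 30.6% (28.6 to 32.6) and 43.5% (42.5 to 44.6). Nuclei with neither UMI were 58.4% (56.2 to 60.5) and 43.0% (42.0 to 44.1). Of the 4 classes that the pair of genes defines, the Opalin-positive Il33-negative class had the smallest difference in share between the libraries.

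**Figure D1:**
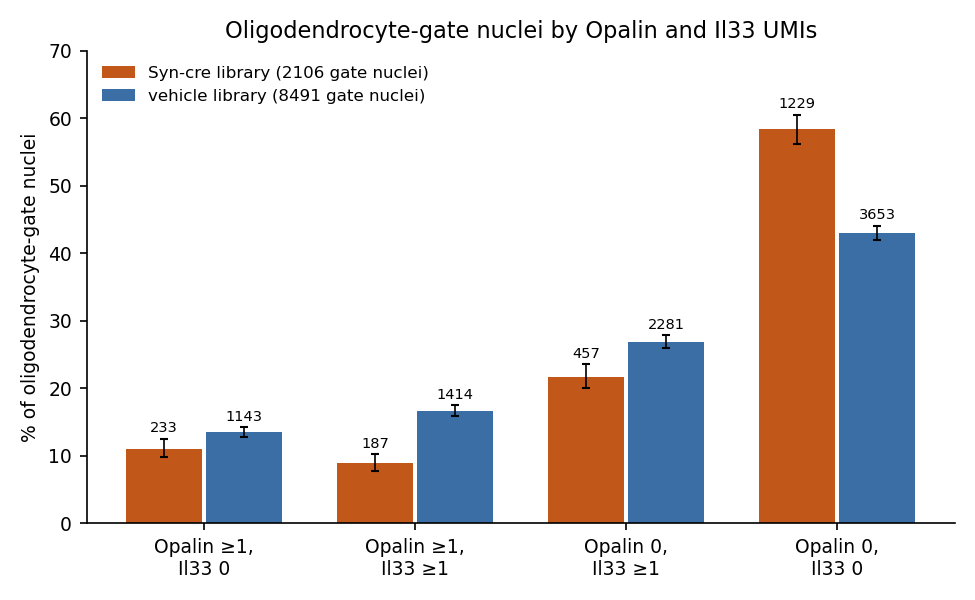
Share of oligodendrocyte-gate nuclei (y axis, %) in the 4 classes set by Opalin and Il33 UMIs (x axis), by library, with exact binomial 95% intervals and the number of nuclei above each bar. Opalin-positive Il33-negative nuclei were 11.1% and 13.5% of the gate, and nuclei with neither UMI 58.4% and 43.0%.

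Opalin was detected more often in nuclei with an Il33 UMI than in nuclei without one. An Opalin UMI was found in 29.0% (25.6 to 32.7) of Il33-positive and 15.9% (14.1 to 17.9) of Il33-negative gate nuclei of the Syn-cre library. The shares in the vehicle library were 38.3% (36.7 to 39.9) and 23.8% (22.6 to 25.1). The order was the same in 7 of 8 bins of depth and library. The exception was Syn-cre nuclei of 4000 or more UMIs, with 28.9% of 45 Il33-positive and 30.8% of 78 Il33-negative nuclei. With every nucleus thinned to 1000 UMIs the shares were 20.2% and 9.18% in the Syn-cre, and 19.3% and 12.9% in the vehicle library.

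**Figure D2:**
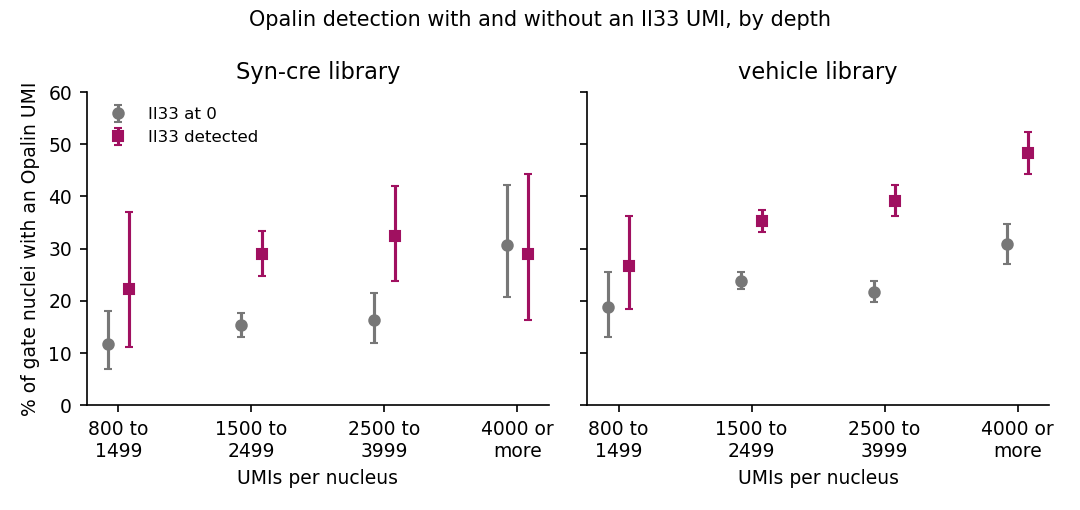
Share of oligodendrocyte-gate nuclei with an Opalin UMI (y axis, %) in 4 bins of UMIs per nucleus (x axis), for nuclei with and without an Il33 UMI, with exact binomial 95% intervals. Squares lie above circles in every bin except the deepest Syn-cre bin, where they read 28.9% and 30.8%.

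Free RNA in droplets can give UMIs in nuclei that do not express a gene, and both genes were seen in other cell gates. An Opalin UMI was seen in 1.53% of neuron-gate and 0.338% of microglia-gate nuclei of the Syn-cre library, and in 8.33% and 5.38% of those of the vehicle library. Neuron-gate nuclei were deeper, with median UMIs of 7926.5 and 6526, than nuclei of the set, with 2109 and 2425, and microglia-gate nuclei shallower, with 1809.5 and 1989.5. Il33 was seen in 4.40% and 1.01% of these nuclei in the Syn-cre, and in 8.04% and 5.46% in the vehicle library. Most nuclei of the set rested on 1 Opalin UMI, namely 176 of 233 and 830 of 1143. A nucleus with no Il33 UMI at this depth was not shown to lack Il33 RNA.

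Both libraries held nuclei with Y-linked RNA (Ddx3y, Uty, Kdm5d or Eif2s3y) and nuclei with Xist RNA, the noncoding RNA of the inactive X chromosome. Of the Opalin-positive Il33-negative nuclei, 78 had Y-linked and no Xist UMIs and 53 the reverse in the Syn-cre library, and 332 and 456 in the vehicle library. As a share of the gate the set had overlapping intervals in both kinds. It made up 11.2% (8.92 to 13.7) of Y-linked-only and 8.80% (6.66 to 11.4) of Xist-only gate nuclei in the Syn-cre library. The vehicle shares were 14.5% (13.1 to 16.0) and 12.8% (11.8 to 14.0).

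Il33 itself differed between these kinds of nuclei, and mainly in the vehicle library. It was detected in 52.5% (50.8 to 54.1) of 3549 Xist-only and 29.6% (27.7 to 31.5) of 2295 Y-linked-only gate nuclei there, at median depths of 2457 and 2407 UMIs. In the Syn-cre library the shares were 34.7% (30.9 to 38.7) of 602 and 28.0% (24.7 to 31.5) of 699. The Y-linked-only nuclei of both libraries therefore had Il33 shares within their intervals of each other, while the Xist-only nuclei did not. Opalin followed the same order in the vehicle library, with 34.1% of Xist-only and 23.9% of Y-linked-only nuclei, and the reverse in the Syn-cre library, with 16.6% and 20.7%. Within each kind and library Opalin was found more often with than without Il33. The shares were 34.2% against 15.5% in Y-linked-only and 22.5% against 13.5% in Xist-only nuclei of the Syn-cre library. In the vehicle library they were 31.8% against 20.5% and 40.5% against 27.0%. Which animals gave these nuclei is not in the labels, so sex and animal cannot be told apart.

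The promoters of this pair of genes are shown because their RNAs were found in the same nuclei. The windows run from 250 bases before to 50 after the start in RefSeq, build GRCm38.p6, on chromosome 19. Opalin lies at chr19:41077064-41077363 on the minus strand, and 1 of 2 listed starts of Il33 at chr19:29924863-29925162 on the plus strand. Capitals mark matches, on either strand, to the E-box CAGCTG, to CTGGCAC or CTGGTAC as bound by MYRF, and to the SOX letters AACAAT. MYRF is a transcription factor of myelin genes.
Opalin: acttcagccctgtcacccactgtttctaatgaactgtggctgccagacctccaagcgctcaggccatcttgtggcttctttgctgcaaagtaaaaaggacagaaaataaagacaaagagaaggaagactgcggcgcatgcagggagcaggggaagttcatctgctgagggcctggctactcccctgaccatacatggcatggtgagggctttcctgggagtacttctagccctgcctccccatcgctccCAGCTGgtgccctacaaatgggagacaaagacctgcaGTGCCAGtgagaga
Il33: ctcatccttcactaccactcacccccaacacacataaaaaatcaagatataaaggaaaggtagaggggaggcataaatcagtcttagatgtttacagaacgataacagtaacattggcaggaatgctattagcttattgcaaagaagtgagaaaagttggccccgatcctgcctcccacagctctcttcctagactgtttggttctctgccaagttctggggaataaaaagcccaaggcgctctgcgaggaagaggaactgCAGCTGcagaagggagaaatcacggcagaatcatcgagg
Opalin held 1 E-box and 1 MYRF match, which do not overlap, and Il33 held 1 E-box match. The second listed start of Il33 held none. Of 32851 windows of this length, 16.3% held the E-box, 7.10% a MYRF match and 10.7% the SOX letters.

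The 6 oligodendrocyte markers Opalin, Mog, Mag, Prr5l, Anln and St18 were all detected in the set, at a summed 6400.5 CPM in the Syn-cre and 8317 CPM in the vehicle library, but all 6 are genes of the rule. Mbp, the myelin basic protein gene, is not, and was at 5112 CPM in the set against 80.0 CPM in astrocyte-gate nuclei of the Syn-cre library. In the vehicle library it was at 5981 against 228 CPM. By this gene the nuclei were of the oligodendrocyte type. Its log2 ratios over Il33-positive nuclei were 0.33 in the Syn-cre and 0.08 in the vehicle library. It does not bear on the Opalin and Il33 part of the label. The median nucleus had UMIs of 7 and 8 of the 9 gate genes. Opalin stood at 572 CPM (511 to 637) and 495 CPM (471 to 519). The 7 newly formed oligodendrocyte markers summed to 281 and 319 CPM. A newly formed gate, which is set by these same markers, had 6590 and 3831 CPM, and 1 and 7 nuclei of the set also passed it. The markers summed to 83.5 and 174 CPM in Il33-positive nuclei, and to 251 and 276 CPM in nuclei with neither UMI. Of the sums in the set, 189 and 130 CPM were of the noncoding RNA 9630013A20Rik.

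RNA of other cell types was present and differed between the libraries. The 10 neuron markers were all detected in both and summed to 4738 CPM in the Syn-cre library, 15.3% of their level in the neuron gate, and to 762 CPM in the vehicle library, 3.01% of it. Syt1 was at 0 in 27.9% of Syn-cre and 89.9% of vehicle nuclei of the set. Astrocyte markers summed to 554 and 833 CPM and microglia markers to 273 and 633 CPM, with Siglech and Tmem119 at 0 in the Syn-cre library. Precursor markers summed to 540 and 811 CPM, endothelial markers to 12.2 and 38.3 CPM (Flt1 and Tek at 0 in Syn-cre), and fibroblast and mural markers to 24.5 and 22.9 CPM (Col1a2 at 0 in Syn-cre, Col3a1 at 0 in both). The set summed to 572143 UMIs in the Syn-cre and 3319784 in the vehicle library, so Syn-cre values carried the larger counting error. The libraries shared 56 barcodes, and 5 nuclei of the set had a barcode also seen in the other library.

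Set against Il33-positive oligodendrocyte nuclei of the same library, the Opalin-positive Il33-negative nuclei differed in few genes. With at least 30 UMIs over both classes in each library, 9049 genes were measured. Past 1.5-fold in both libraries, 25 genes (0.276%) were higher in the set and 43 (0.475%) lower, and 16 were past it in opposite ways. The ratios had the same sign in both libraries for 53.9% of genes. Because both classes were cut from the same nuclei by genes of those nuclei, these values are a description without a test.

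9630013A20Rik, a long noncoding RNA of newly formed oligodendrocytes, had the highest ratio of all. Its log2 ratio was 4.41 in the Syn-cre and 2.10 in the vehicle library. It came from few nuclei, since 10 of 233 and 42 of 1143 nuclei of the set had a UMI and 1 nucleus held up to 78 and 96. Nuclei with at least 3 of its UMIs are called 9630013A20Rik-rich, a limit chosen after its values were seen.

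Of the 12 named higher genes, Ctps, the enzyme that makes cytidine triphosphate, had the highest ratio when each gene is ranked by its smaller value of both libraries. It was at 71.7 against 23.2 CPM in the Syn-cre library, a log2 ratio of 1.62 (0.94 to 2.32). In the vehicle library it was at 34.0 against 13.9 CPM, a ratio of 1.30 (0.93 to 1.66). Man1a, a Golgi mannosidase that trims N-glycans, was at 232 against 70.2 CPM and at 130 against 76.0 CPM. Its ratios were 1.73 (1.35 to 2.11) and 0.78 (0.61 to 0.95). Cxcl12, a chemokine, had ratios of 1.18 (0.65 to 1.70) and 1.11 (0.75 to 1.45). Chsy3, a chondroitin sulfate synthase, had 0.97 and 0.84, and Pip5k1b, a phosphoinositide kinase, 0.85 and 0.79.

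Other named genes were Pcdh7, Kank1, Synpr, Parvb and Vangl1. Pcdh7, a protocadherin, was at 309 against 117 CPM and 192 against 114 CPM, with ratios of 1.40 (1.09 to 1.71) and 0.75 (0.61 to 0.89). Kank1, a regulator of actin, had ratios of 1.86 (1.33 to 2.40) and 0.68 (0.47 to 0.88). Synpr, a protein best known from synaptic vesicles, was at 232 against 109 CPM and 137 against 77.5 CPM. Its ratios were 1.10 (0.76 to 1.44) and 0.82 (0.65 to 0.99). Parvb, an integrin-linked adaptor, and Vangl1, a planar polarity protein, had 1.40 and 1.19 in the Syn-cre and 0.75 and 0.61 in the vehicle library. Mtfr1 and Fpgt completed the 12 named genes, with Syn-cre intervals that included 0.

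Genes lower in the set by CPM were in part genes of other glia. Slc1a2, the astrocytic glutamate transporter, was at 121 against 201 CPM in the Syn-cre and 155 against 258 CPM in the vehicle library. Its log2 ratios were -0.73 (-1.14 to -0.36) and -0.73 (-0.87 to -0.60). Gpc5, a glypican of astrocytes, had -0.62 (-1.04 to -0.24) and -0.67 (-0.80 to -0.55). Ntm, a neural adhesion molecule, had -0.81 (-1.17 to -0.48) and -0.59 (-0.72 to -0.45). The 10 astrocyte markers, of which Slc1a2 and Gpc5 are 2, summed to 554 against 828 CPM in the Syn-cre and 833 against 1188 CPM in the vehicle library, and their part in these ratios was not tested. In the Syn-cre library the ratio of Slc1a2 was 0.14 and that of Gpc5 0.50 with Syt1 at 0, and both were also above 0 without nuclei marked as doublets. At 1500 to 4000 UMIs the ratios of Slc1a2, Gpc5 and Ntm were -0.12, -0.41 and -0.16 in the vehicle library. They were 0.19, 0.16 and -0.36 in the Syn-cre library. Gpc5 was detected in 9.87% of the set against 8.70% of Il33-positive nuclei in the Syn-cre, and 13.2% against 12.9% in the vehicle library. Detection of Slc1a2 was 21.9% against 19.9% and 17.3% against 18.8%, and of Ntm 21.5% against 23.1% and 13.0% against 12.7%. The 12 named lower genes also took in Nol4, Gm3764, Gstcd, Gpn1, Khdrbs3, Nxph1, Gpc6, Nrp2 (a semaphorin receptor) and Trim9, with ratios between -1.12 and -0.57. Of these, Trim9 was short of 1.5-fold in both libraries, and Gstcd and Gpn1 had Syn-cre intervals that included 0.

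No myelin or lineage transcription factor gene on the lists was past 1.5-fold in both libraries. Of 20 gene lists, 1 held a gene that was, the newly formed list with 9630013A20Rik. That list also had the highest median log2 ratios of the 20, at 0.41 in the Syn-cre and 0.17 in the vehicle library over 13 genes. With Syt1 at 0 its medians were 0.35 and 0.03. Compact myelin proteins had median log2 ratios of 0.23 in the Syn-cre and 0.05 in the vehicle library over 11 genes, and lineage transcription factors 0.17 and 0.02 over 16. The median over all 9049 genes was -0.04 and -0.01. Late mature genes had -0.15 and 0.02 over 13 genes.

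**Figure D3:**
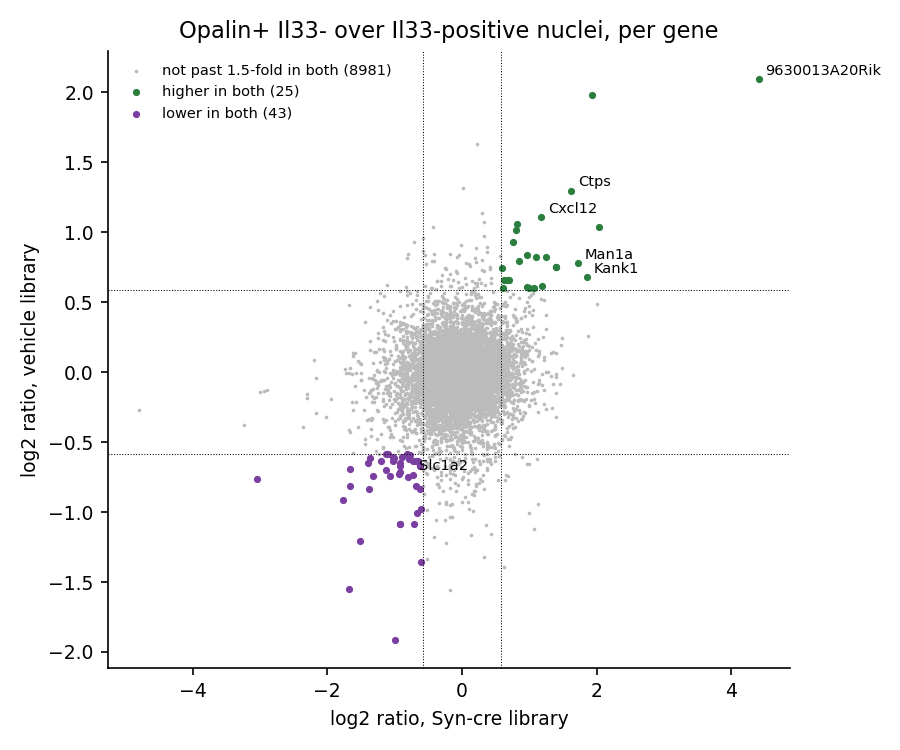
Log2 ratio of CPM in Opalin-positive Il33-negative over Il33-positive oligodendrocyte nuclei in the Syn-cre (x axis) and vehicle library (y axis), 1 point per gene, with dotted lines at 1.5-fold. 25 genes lie past the lines at the upper right, led by 9630013A20Rik, and 43 at the lower left.

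The 9630013A20Rik-rich nuclei were 3 of 233 (1.29%) nuclei of the set in the Syn-cre library and 13 of 1143 (1.14%) in the vehicle library. Among Il33-positive nuclei they were 0 of 644, which allows up to 0.571%, and 14 of 3695 (0.379%). Among nuclei with neither UMI they were 7 of 1229 (0.570%, 0.229 to 1.17) and 19 of 3653 (0.520%, 0.313 to 0.811), and 7 and 12 of those passed the newly formed gate. Those of the set were deep, with median depths of 6510 and 8906 UMIs against 2084 and 2415.5 in the other nuclei of the set, and 0 and 4 of those in the set passed the newly formed gate. Pcdh7 was at 2882 CPM in the 3 Syn-cre and 2701 CPM in the 13 vehicle nuclei, against 219 and 106 CPM in the rest. Prom1, which encodes a protein of membrane protrusions, was at 669 and 372 CPM against 16.3 and 8.72 CPM. Ctps was at 669 and 335 CPM against 50.7 and 23.7 CPM, and Tnik, a kinase of Wnt signalling, at 2728 and 1822 against 317 and 169 CPM.

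The same nuclei held little Anln, Apod and Grm3. Anln, a gene of the rule, encodes anillin, an organiser of septins in myelin. It had no UMI in the 3 Syn-cre nuclei and 127 CPM in the 13 vehicle nuclei, against 532 and 850 CPM in the rest. Apod, a lipid carrier of mature cells, was at 51.5 and 181 CPM against 859 and 1007 CPM. Grm3, a glutamate receptor, was at 0 and 163 CPM against 852 and 1300 CPM. Nfasc, whose product assembles the paranode, was high, at 5095 and 4323 CPM against 778 and 757 CPM, and Mbp was at 10396 and 7940 CPM against 4927 and 5913 CPM. Fyn, a kinase of early myelination, was at 154 CPM (3 UMIs) in Syn-cre and 1514 CPM (167 UMIs) in vehicle rich nuclei. In the rest it was at 186 and 92.5 CPM. With 3 and 13 rich nuclei these values do not compare the libraries.

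Without the rich nuclei 10 genes in place of 25 were higher in the set in both libraries. The ratio of Ctps was then 1.13 and 0.90 and that of Man1a 1.60 and 0.68, while that of Pcdh7 was 0.90 and 0.14. That of Synpr was 0.94 and 0.69 and that of Cxcl12 1.23 and 1.11. Between 1500 and 4000 UMIs, where 11 of the 12 named higher genes had a value, none of the 11 was past 1.5-fold in both libraries. Synpr then had 0.43 in the Syn-cre and 0.16 in the vehicle library, Man1a 0.53 and 0.17, and Chsy3 0.40 and 0.13. Ctps had -0.46 and 0.62, Cxcl12 -0.05 and 1.12, Pip5k1b 0.46 and -0.44, and Pcdh7 0.15 and -0.10. Kank1 had 0.91 and 0.50, Parvb 0.75 and 0.28, Vangl1 0.71 and 0.54, and Fpgt 0.14 and 0.46.

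Against nuclei with neither Opalin nor Il33 UMIs the set differed in more genes. Of 10489 measured genes, 55 (0.524%) were higher and 164 (1.56%) lower past 1.5-fold in both libraries. Over the 6181 genes measured in all comparisons, 36 were higher and 34 lower than in nuclei with neither UMI, and 15 and 14 against Il33-positive nuclei. Against nuclei with both UMIs, 16 of these genes (0.259%) were higher and 4 (0.0647%) lower. In the larger vehicle library alone 4.85% of these genes were past 1.5-fold against nuclei with neither UMI and 1.49% against nuclei with both.

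Synpr had the highest smaller ratio here, at 232 against 71.4 CPM in the Syn-cre and 137 against 42.6 CPM in the vehicle library, log2 ratios of 1.71 and 1.68. Kirrel3, an adhesion molecule of the immunoglobulin family, was at 1080 against 379 CPM and 707 against 304 CPM. Kit, a receptor tyrosine kinase, had ratios of 1.16 and 2.17, and Prickle1, a planar polarity protein, 1.22 and 0.98. Sgk2, a kinase, and Rasal1, a Ras GTPase-activating protein, had 1.33 and 1.29 in the Syn-cre and 1.27 and 1.06 in the vehicle library.

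Apod led the lower genes by level, at 832 against 2414 CPM in the Syn-cre and 979 against 1689 CPM in the vehicle library, ratios of -1.54 and -0.79. Itih5, a matrix protein, had -1.63 and -0.91, and Sult1a1, a sulfotransferase, -1.22 and -1.11. Pxmp2, a peroxisomal membrane protein, had -0.97 and -0.95. Anln, a gate gene, was at 514 against 993 CPM and 826 against 1090 CPM. Compact myelin proteins had medians of 0.46 and 0.30 over 11 genes, with 1 of them higher past 1.5-fold and 0 lower, against a median of -0.03 and -0.06 over all genes.

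Kirrel3, Tspan2 and Synpr were higher in both classes with Opalin than in both without it. Kirrel3 in the vehicle library was at 707 CPM in the set and 764 CPM in nuclei with both UMIs, against 547 CPM in Il33-only nuclei and 304 CPM in nuclei with neither. Its Syn-cre levels in that order were 1080, 722, 555 and 379 CPM. Without 9630013A20Rik-rich nuclei the set had 645 CPM of Kirrel3 in the vehicle and 888 CPM in the Syn-cre library. Tspan2, a myelin tetraspanin, had 863, 930, 747 and 558 CPM in that order, and in the Syn-cre library 918, 724, 633 and 429 CPM. Synpr had 137, 103, 59.8 and 42.6 CPM in the vehicle and 232, 161, 86.6 and 71.4 CPM in the Syn-cre library. Apod was highest in nuclei with neither UMI, with 979, 786, 924 and 1689 CPM in the vehicle and 832, 575, 1062 and 2414 CPM in the Syn-cre library.

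Within the set, nuclei with 3 or more Opalin UMIs had more Synpr, Prickle1, Mbp and Mobp RNA per total. Opalin is a gene of the rule, so this is a description. The nuclei with 1, 2 and 3 or more UMIs numbered 176, 40 and 17 in the Syn-cre and 830, 210 and 103 in the vehicle library. Their median depths were 2035, 2070.5 and 3450 UMIs, and 2357, 2484 and 3296 UMIs, so the third group was also deeper. Synpr was at 172, 153 and 679 CPM in the Syn-cre and 77.3, 145 and 443 CPM in the vehicle library. Prickle1 was at 336, 488 and 1386 CPM, and 259, 338 and 976 CPM. Mbp was at 4591, 5123 and 7953 CPM, and 5599, 5988 and 8019 CPM, and Mobp, a second major myelin protein gene, at 1246, 1628 and 2729 CPM, and 1426, 1533 and 2180 CPM.

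Anln and Apod ran the other way along the same groups. Anln, also a gene of the rule, was at 642, 287 and 139 CPM in the Syn-cre and 908, 755 and 490 CPM in the vehicle library. Apod was at 1042, 517 and 139 CPM, and 1120, 785 and 507 CPM. Of the 9630013A20Rik-rich nuclei, 3 of 3 in the Syn-cre and 8 of 13 in the vehicle library had 3 or more Opalin UMIs. Without them the third group had 588 and 395 CPM of Synpr, 7053 and 7592 CPM of Mbp, 190 and 575 CPM of Anln and 171 and 570 CPM of Apod, so these orders were also seen in the remaining nuclei.

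**Figure D4:**
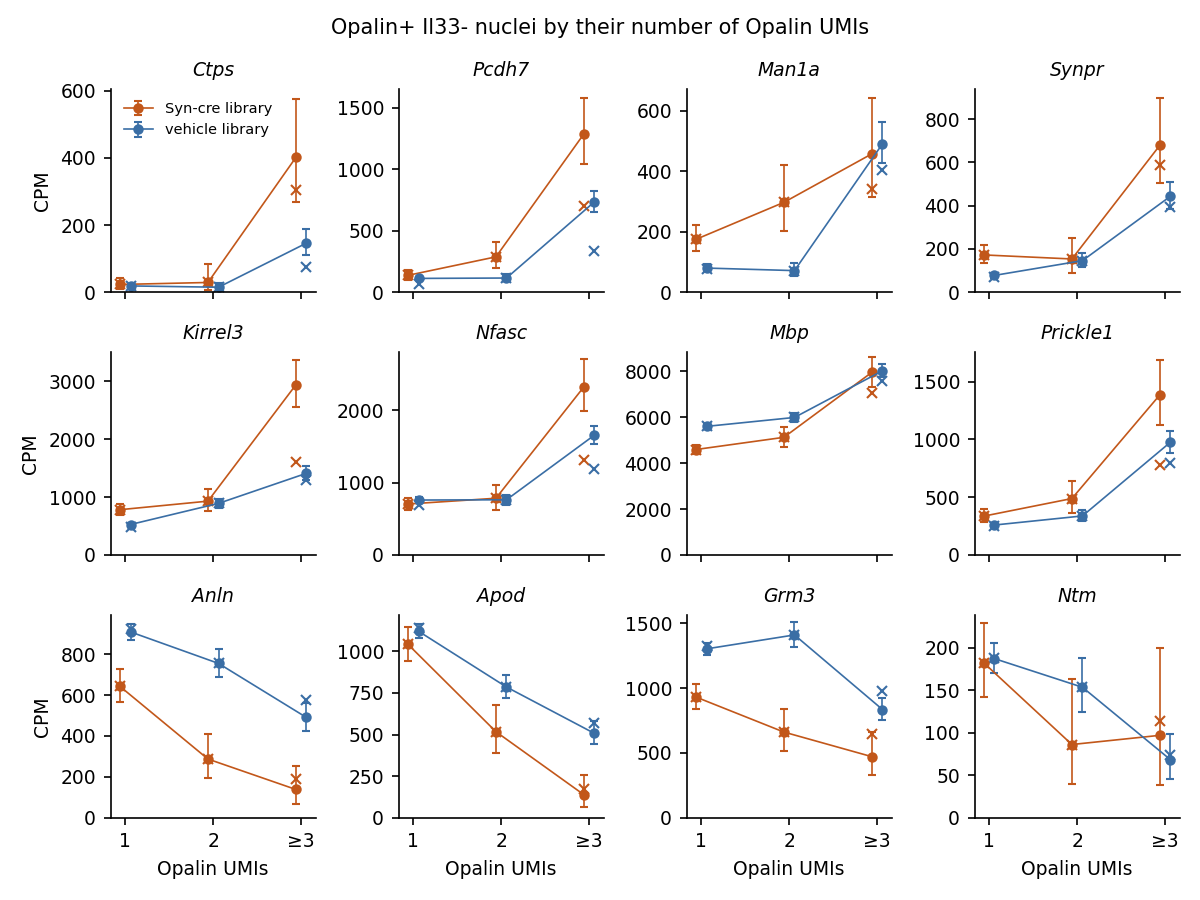
CPM (y axes, linear) of 12 genes in Opalin-positive Il33-negative nuclei grouped by their Opalin UMIs (x axes), by library, with exact Poisson 95% intervals. Crosses give the same groups without 9630013A20Rik-rich nuclei. Synpr goes from 172 to 679 CPM and Apod from 1042 to 139 CPM in the Syn-cre library.

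Gene levels also varied among nuclei of the set beyond what sampling gives, for which variance over mean is near 1. With counts thinned to 1000 UMIs, 49 of 6195 ranked genes had a variance over mean above 1.5 in both libraries. Malat1, an abundant nuclear noncoding RNA, had 6.48 and 9.52 in the Syn-cre and vehicle library. Ptgds, the prostaglandin D synthase of mature oligodendrocytes, had 6.68 and 5.99, found in 98.7% and 98.1% of nuclei with up to 94 and 117 UMIs in 1 nucleus. 9630013A20Rik had 6.54 and 5.61, Zfp804b, a zinc finger gene, 4.70 and 5.12, Apod 2.89 and 3.38 and Kirrel3 2.88 and 3.51. Tnr, a tenascin of the extracellular matrix, Pcdh9, 9330111N05Rik and Csmd1 completed the 10 named, with 2.22 or more in both libraries. Tnr is a precursor marker here and Csmd1 a neuron marker. Of the Tnr UMIs of the set, 226 (43.8%) in the vehicle library lay in its 13 9630013A20Rik-rich nuclei. In the Syn-cre library 4 (4.88%) lay in its 3 rich nuclei. Csmd1 was at 3394 and 3172 CPM in neuron-gate nuclei of the Syn-cre and vehicle library, against 395 and 174 CPM in the set. Doublets were kept, and the part of RNA of other cells in this variation was not tested.

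Between the libraries, the Syn-cre nuclei of the set had more RNA of neuronal genes, and lower levels of E330020D12Rik, Trf and Hapln2. Of 8659 genes with at least 50 UMIs over both libraries, 650 (7.51%) were higher and 291 (3.36%) lower past 2-fold in the Syn-cre library, and 453 and 480 with TMM scaling. Of the higher genes, 340 (52.3%) were at under 0.5 of their level in another cell gate of that library. By the same measure in the vehicle library, 106 (36.4%) of the lower genes were. The share over all 8659 genes is not given here, so neither share is read as a trait of those genes. The same sign was found for 632 of the 650 in Il33-positive and for 632 in nuclei with neither UMI, and 443 and 346 were past 2-fold there too. Of the 291 lower genes, 244 and 245 had the same sign and 75 and 94 were past 2-fold. All these classes come from the same libraries, and the same counts over all 8659 genes are not given here. The agreement between classes is therefore a description. Intervals lay off 0 for 641 of the higher and 242 of the lower genes. The median log2 ratio over all measured genes was 0.06, and -0.14 with TMM scaling, so list medians are read against those values.

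Among genes whose level in the set was at least 0.5 of that in other gates, 10 of the 12 highest ratios were of genes at 126 to 724 CPM in Syn-cre neuron-gate nuclei. Chgb, a granin of secretory vesicles, was at 198 against 11.1 CPM, a log2 ratio of 4.13 (3.60 to 4.72). Atp1b1, a sodium pump subunit, was at 540 against 41.6 CPM, and Rtn1, a neuronal reticulon, at 586 against 69.9 CPM. Neuron-gate nuclei of the Syn-cre library held 126 CPM of Chgb, 524 CPM of Atp1b1 and 724 CPM of Rtn1. Ly6h, Zcchc18, Olfm1, Scg5, Calm2 and Itm2c had ratios between 1.62 and 3.23. With the neuron marker sum at 4738 against 762 CPM, the part of neuronal RNA in these ratios was not tested. With Syt1 at 0, which left 65 Syn-cre nuclei, Chgb had 4.15 and Atp1b1 3.72.

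Ddc and Itgad were the other 2 of these 12 genes and were low in neuron-gate nuclei. Itgad, an integrin alpha subunit, was at 281 against 89.5 CPM, a log2 ratio of 1.66 (1.37 to 1.93), and at 1.85 CPM in Syn-cre neuron-gate nuclei. Ddc, aromatic amino acid decarboxylase, was at 189 against 59.0 CPM, a ratio of 1.68 (1.32 to 2.02), and at 4.45 CPM in neuron-gate nuclei. Their ratios were 1.54 and 1.20 in Il33-positive nuclei and 1.25 and 1.03 in nuclei with neither UMI. Syt1 at 0 gave 1.64 for Itgad and 1.36 for Ddc.

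E330020D12Rik was the lowest of the named genes, at 159 CPM (91 UMIs) in the Syn-cre against 839 CPM (2784 UMIs) in the vehicle library. Its log2 ratio was -2.39 (-2.72 to -2.10), and -2.10 and -2.31 in Il33-positive nuclei and nuclei with neither UMI. Gng11, a G protein gamma subunit, was at 22.7 against 95.8 CPM, a ratio of -2.02 (-3.00 to -1.28). Serpinb1a, a protease inhibitor, had -1.84 (-2.92 to -1.03), Slc5a11, an inositol transporter, -1.67 (-3.45 to -0.53), and Hcn2, a cation channel, -1.66 (-2.42 to -1.05). Mfsd14b, Aven, Aebp1, Shroom3, Cdan1, Osbpl7 and Prim1 had ratios between -2.01 and -1.64 on 4 to 13 Syn-cre UMIs.

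Myelin genes of the set were within 2-fold between the libraries. Of 11 measured compact myelin genes 0 were past it, with a median log2 ratio of -0.17. Mbp was at 5112 against 5981 CPM, a ratio of -0.23 (-0.28 to -0.17), and Mobp at 1503 against 1542 CPM, -0.04 (-0.14 to 0.07). Of 16 myelin lipid enzymes 0 were past 2-fold, with a median of -0.37, and Ugt8a, which makes galactosylceramide, had -0.75 (-0.97 to -0.55). Cholesterol synthesis genes had a median of 0.31 over 16 and 0 past 2-fold, with Cyp51 at 0.64 (0.07 to 1.15). TMM scaling gave medians of -0.37, -0.57 and 0.11 for these 3 lists.

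Of 13 late mature genes 3 were lower past 2-fold, beside 3.36% of all genes, and 0 higher, with a median of -0.44, or -0.55 with Syt1 at 0. Trf, the transferrin that oligodendrocytes secrete, was at 760 against 1666 CPM, a ratio of -1.13 (-1.28 to -0.99). Hapln2, a link protein of the node of Ranvier, was at 231 against 600 CPM, -1.37 (-1.64 to -1.12), and Selenop, a selenium carrier, at 89.1 against 231 CPM, -1.36 (-1.81 to -0.96). Ptgds was the reverse, at 5549 against 4116 CPM, 0.43 (0.37 to 0.49). Of 14 newly formed genes 3 were lower and 1 higher, beside 3.36% and 7.51% of all genes, with a median of -0.46, or -0.03 with Syt1 at 0. Enpp6, a choline phosphodiesterase of newly formed cells, was at 43.7 against 121 CPM, -1.44 (-2.12 to -0.89), Mpzl1 had -1.24 and Gpr17 was at 10.5 against 22.6 CPM, while Cyfip2 had 1.77. Of 4 measured Klk6-type genes, named for a kallikrein of one mature state, 1 was lower, Hopx, on 2 Syn-cre UMIs, with a list median of -0.37.

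Of 14 measured heat shock genes, 4 were lower past 2-fold, beside 3.36% of all genes, and 0 were higher. The list median was -0.51, or -0.30 with Syt1 at 0, and 2 of the 4 rested on 1 or 2 Syn-cre UMIs. Cryab, a small heat shock protein of oligodendrocytes, was at 182 against 380 CPM, a ratio of -1.06 (-1.36 to -0.77). Hspa4l had -1.22 (-1.86 to -0.69). Bag3, a co-chaperone, had -2.66 (-6.04 to -1.08) on 2 against 91 UMIs, and Hspa1a -2.77 (-8.67 to -0.81) on 1 against 59. The integrated stress response had 0 of 7 past 2-fold, a median of -0.25, and disease-associated oligodendrocyte genes 0 of 11, a median of -0.16, with Apoe at -0.91 (-1.15 to -0.69).

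Transcription factors and structural genes were within 2-fold. Of 16 lineage transcription factors 0 were past it, a median of -0.16, with Sox10 at 0.21 (0.01 to 0.40) and Myrf at -0.31 (-0.61 to -0.03). Of 15 node and paranode genes 0 were past it, a median of -0.31. Of 15 cytoskeletal genes 0 were past it, a median of -0.42. Of 16 members and partners of the Prp19 complex, to which Bcas2 belongs, 0 were past 2-fold, a median of 0.15 that TMM scaling turned to -0.05.

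The remaining lists are to be read beside the 7.51% of all genes that were higher and the 3.36% that were lower. The first of these shares comes to about 1 gene in a list of 14 or 16. Of 16 potassium and sodium handling genes 5 were higher, with Atp1b1 and Kcnma1 among them, and 1 lower, Trpm3 at -1.32. Of 10 nuclear noncoding RNAs 4 were higher, led by Meg3, a neuron marker here, at 2260 against 129 CPM. The medians of these 2 lists were 0.21 and 0.36, and both were -0.02 with Syt1 at 0. Of 14 growth factor receptors 2 were higher, Ntrk2 and Ntrk3, at 1.48 (1.11 to 1.83) and 1.81 (1.36 to 2.25). Of 16 BDNF and TrkB genes Ntrk2 was higher and Sort1, a sorting receptor of BDNF, lower at -1.04 (-1.37 to -0.74). Of 13 axonal support genes Pdk1, Grin1 and Nmnat2 were higher, of 14 p53 target and apoptosis genes Cdkn1a and Plk2, and of 5 measured immediate early genes Nr4a1. The medians of the receptor, BDNF, axonal support, p53 and immediate early lists were -0.07, -0.05, -0.04, -0.03 and 0.45. The 10 neuron markers were 15.3% and 3.01% of their neuron-gate level in the same nuclei, and their part in these ratios was not tested.

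**Figure D5:**
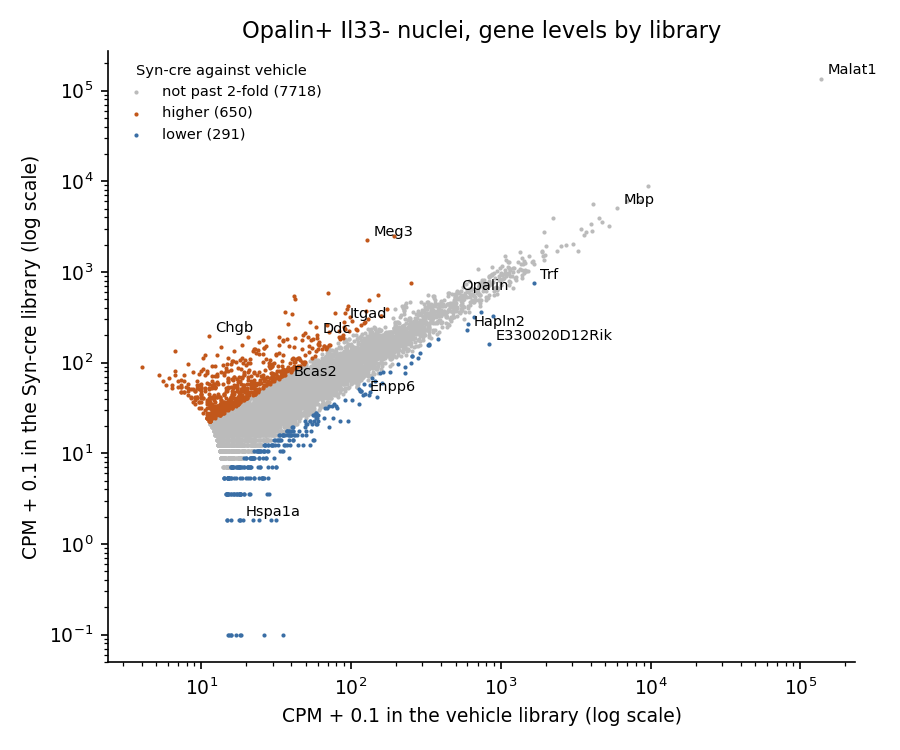
CPM plus 0.1 in Opalin-positive Il33-negative nuclei of the vehicle (x axis) and Syn-cre library (y axis), both log scales, 1 point per measured gene, with genes that had no Syn-cre UMI at 0.1. 650 genes lie past 2-fold above and 291 below, while Mbp lies at 5981 and 5112 CPM.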

How the data were processed

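Nuclei were isolated by douncing and sorting and sequenced as 10x 3' libraries, per the labels' protocols. The authors deposited raw UMI counts per gene and barcode. The submitters' processing notes name Cell Ranger, whose version in the files is 9.0.1, and the genome build GRCm39. Counts were summed over nuclei of each class and library and given as CPM of that sum. Each library had a median of 4399 (Syn-cre) and 2567 (vehicle) UMIs per deposited barcode and 90594923 and 41781481 UMIs in all. Log2 ratios used 0.5 added UMI, except those of Bcas2. Intervals were exact: Poisson for CPM (not shown beside every value), Clopper-Pearson for shares and conditional binomial for ratios. Thinning drew 1000 UMIs per nucleus.

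Genes were named as the 12 highest and 12 lowest, by the smaller ratio of both libraries for classes, with 5% detection in the class where higher. Between libraries they needed at least 100 UMIs, 5% detection and 0.5 of the level in other gates, all in the library where they were higher. The set summed to 572143 UMIs in the Syn-cre and 3319784 in the vehicle library, so 100 UMIs is a higher CPM in Syn-cre. The highest and lowest genes between libraries were thus drawn from unlike levels. Gene lists, of 325 symbols of which 2 were not matched, were described by counts and medians. The members, lists and rules were chosen with earlier results of these data known. Doublets were kept; Scrublet marked 11 and 139 nuclei of the set. Its automatic threshold marked 2 nuclei of the vehicle library and was replaced there by the 1366 highest scores. Alternatives included edgeR 4.0.16 TMM factors. Calculations used Python 3.11.15, scipy 1.17.1 and scanpy 1.11.5, and ratios and intervals were tested on simulated counts. Some genes that the rules name are not reported here.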

Additional observations from a re-analysis of the deposited data

Results flagged for a closer look

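Hopx, a gene of the Klk6-type list, was lower in the Syn-cre library in the Opalin-positive Il33-negative nuclei and higher there in Il33-positive nuclei. Its log2 ratio was -1.77 (-5.16 to -0.15) in the former, on 2 and 49 UMIs, and 0.88 (0.20 to 1.48) in the latter. The difference between these ratios was not tested. Of 55 reported genes checked, Hopx was the only 1 with opposite signs and both intervals off 0. Among all 8659 measured genes 23 had such signs.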

How the results depend on the processing

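No paired analysis was possible because each group had 1 library and the labels carry no replicate numbers, so no library could be left out either. The settings by Xist, Y-linked RNA and 9630013A20Rik were chosen after seeing the data. The set's share of kept nuclei was 1.40% (no UMI minimum, 300 genes), 1.30% (6 gate genes), 0.484% (Syt1 at 0), 0.424% (2 Opalin UMIs), 0.961% (thinned), 5.20% (1500 to 4000 UMIs) and 1.34% (Xist-only nuclei) in the Syn-cre library. In the vehicle library it was 8.44%, 8.21%, 2.50%, 5.75% and 10.01% with 6 gate genes, Syt1 at 0, 2 Opalin UMIs, thinned and 1500 to 4000 UMIs. Its share of the gate was 9.33%, 2.71%, 7.47% and 8.80% in the Syn-cre library with Syt1 at 0, 2 Opalin UMIs, thinned and in Xist-only nuclei, and 3.69%, 9.47% and 14.5% in the vehicle library with 2 Opalin UMIs, thinned and in Y-linked-only nuclei.

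Genes higher in the Syn-cre library numbered 180 with 2 Opalin UMIs, 137 thinned, 265 at 2 times the UMI minimum, 169 in Y-linked-only and 291 in Xist-only nuclei. Lower genes numbered 582 with Syt1 at 0, 151 thinned, 480 with TMM, 136 at 2 times the minimum and 180 in Y-linked-only nuclei. TMM left 453 higher, fewer than it found lower. Against Il33-positive nuclei the higher genes were 16 (6 gate genes), 7 (Syt1 at 0), 111 (2 Opalin UMIs), 3 (thinned), 16 (1500 to 4000 UMIs), 12 (2 times the minimum), 10 (without 9630013A20Rik-rich nuclei) and 12 (Xist-only). The lower genes were 9 (Syt1 at 0), 250 (2 Opalin UMIs), 4 (thinned), 12 (1500 to 4000 UMIs), 14 (mean CPM over nuclei), 18 (2 times the minimum) and 20 (Xist-only). Fewer genes were measured when thinned (2961) or with Syt1 at 0 (4620) than in the full set (9049).

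Signs turned, against Il33-positive nuclei in the Syn-cre library, for Ctps (-0.46) and Cxcl12 (-0.053) at 1500 to 4000 UMIs, Slc1a2 (0.14 with Syt1 at 0, 0.16 without marked doublets, 0.19 at 1500 to 4000 UMIs, 0.47 in Y-linked-only nuclei), Nol4 (0.56 with Syt1 at 0), Gpc5 (0.50, 0.47, 0.16 and 0.039 in the settings of Slc1a2), Khdrbs3 (0.00252 in Xist-only nuclei) and Ntm (0.025 without marked doublets). In the vehicle library they turned for Pip5k1b (-0.35 thinned, -0.44 at 1500 to 4000 UMIs), Pcdh7 (-0.10) and Gpc6 (0.18) at 1500 to 4000 UMIs, and Khdrbs3 (0.64 thinned). The cause was not tested. Bcas2 stayed above 0 in every setting run.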
